A study of Mus musculus with 6 samples.

Results

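The genes described here are the 9 genes of the axis formed by interleukin 23 (IL-23) and interleukin 17 (IL-17), taken as the rows of a deposited colon expression table whose gene name is Il23a, Il12b, Il12a, Il23r, Il17a, Il17f, Il17ra, Il17rc or Il21, 9 of 54532 genes. The table holds 6 libraries of whole colon RNA from C57BL/6 mice aged 56 days, 3 labelled IL10-/- and 3 labelled wild type (WT). The comparison asks how the colon of mice without interleukin 10, a cytokine that restrains inflammation, differs from that of WT mice. The deleted allele is not given in the sources used here. Neither is whether each library is a separate mouse, so spreads and p-values are those between libraries. Values are FPKM, fragments scaled by gene length and by a library size that the authors set. The reads behind them could be recovered and totalled 13107941 to 15797928 per library.

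IL-23 is a cytokine of dendritic cells and macrophages made of the subunit p19 (Il23a) and the subunit p40 (Il12b). IL-12 pairs the same p40 with p35 (Il12a). IL-23 acts through its receptor chain IL-23R (Il23r) on T helper 17 cells, gamma delta T cells and group 3 innate lymphoid cells, which secrete IL-17A and IL-17F. These ligands bind IL-17RA together with IL-17RC on epithelium and stroma, where they raise antimicrobial proteins and neutrophil attractants. In the gut the axis is known both for barrier defence and for its part in colitis.

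Promoter sequence is shown for 3 genes, Il23r, Il17a and Il17f, the receptor and the ligands that it controls, because each of these windows holds at least 1 AGGTCA, the half-site that transcription factors of the nuclear receptor family recognise. The windows run from 250 bases before to 50 bases after the RefSeq start site (GRCm38.p6) and are printed on the gene's strand, with capitals marking every match to the motifs searched on both strands. The Il23r window is chr6:67491806-67492105 on the minus strand, the Il17a window chr1:20730655-20730954 on the plus strand and the Il17f window chr1:20784221-20784520 on the minus strand.
Il23r: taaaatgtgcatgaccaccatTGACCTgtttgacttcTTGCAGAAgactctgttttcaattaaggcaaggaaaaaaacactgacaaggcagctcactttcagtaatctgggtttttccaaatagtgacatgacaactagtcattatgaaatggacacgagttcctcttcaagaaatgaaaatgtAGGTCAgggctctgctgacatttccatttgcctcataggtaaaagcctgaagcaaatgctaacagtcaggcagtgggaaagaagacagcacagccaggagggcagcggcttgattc
Il17a: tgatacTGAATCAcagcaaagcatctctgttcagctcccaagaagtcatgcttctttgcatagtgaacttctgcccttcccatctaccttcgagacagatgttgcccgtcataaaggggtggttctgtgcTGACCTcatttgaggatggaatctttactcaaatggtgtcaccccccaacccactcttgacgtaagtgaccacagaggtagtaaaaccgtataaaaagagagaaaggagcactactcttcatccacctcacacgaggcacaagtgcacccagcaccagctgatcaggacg
Il17f: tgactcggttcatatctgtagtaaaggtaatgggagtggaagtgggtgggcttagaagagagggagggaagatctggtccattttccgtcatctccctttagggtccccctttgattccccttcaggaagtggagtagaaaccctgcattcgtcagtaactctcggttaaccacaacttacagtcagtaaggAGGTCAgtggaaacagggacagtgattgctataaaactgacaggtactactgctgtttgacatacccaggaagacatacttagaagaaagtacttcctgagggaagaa
The AGGTCA half-site, read as TGACCT on the other strand, starts 229 and 66 bases before the start site in Il23r, 120 bases before it in Il17a and 58 bases before it in Il17f. It occurs in 16.3% of all 32851 promoter windows. The other capitals are an AP-1 match (TGANTCA, in 7.81% of windows) in Il17a and a C/EBP match (TTGCNNAA, in 10.8%) in Il23r. No matches overlap in these windows. The STAT motif TTCNNNGAA (in 8.30% of windows) and the NF-kB consensus (in 8.46%) had no match in these 3 windows. Windows were found for 7 of the 9 genes, and those of Il12b, Il12a, Il17rc and Il21 held no match to any of the 5 motifs. The RefSeq start used for Il17f lies 6347 bases inside the gene as the deposited table annotates it. A match is a description of letters and not a mapped binding site.

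Only 3 of the 9 genes were abundant enough to be tested, and none of these passed the threshold between the genotypes (limma on log2(FPKM + 1), Benjamini-Hochberg adjustment over all genes tested). Il17a had the largest log2 fold change of the 9, and its RNA was read in every knockout-labelled library and in no WT library. Il12a and Il23r were also above every WT library in every knockout-labelled one, while Il17f, Il21, Il23a, Il12b and both receptor genes overlapped between the genotypes. The test covered 12668 genes, those whose FPKM averaged 1 or more across the 6 libraries. Of the 9, Il17a, Il17ra and Il17rc met that filter, and Il17a met it only through the knockout-labelled libraries. Of these 3 genes 0 were called higher, against 0.182% of all tested genes, and 0 were called lower, against 0.0%. Il17a alone had an unadjusted p under 0.05. Because of how it met the filter, nothing is read from that count beside the 6.14% of tested genes that were higher at this level. limma-voom on the recovered reads called 0 of the same 3 genes, and the other 6 were not tested there. A fit without the filter tested all 9 and called 0. In the plainer count of complete separation, 3 of 9 genes had all knockout-labelled libraries above all WT ones, against 6.52% of the 27418 genes with a read, and 0 of 9 had them all below, against 6.93%. With 3 libraries per genotype an exact two-sided permutation test cannot go below p = 0.1.

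The libraries differed in tissue markers within each genotype, and the part of this in the values below was not tested. Summed FPKM of 5 smooth muscle markers was 111 to 605 in the knockout-labelled libraries and 830 to 5445 in the WT libraries, with WT library 3 highest, where mitochondrial genes also took 43.4% of reads. Summed FPKM of 10 colon epithelial markers was 3301 to 9839 in the knockout-labelled libraries and 1810 to 38639 in WT, with WT library 2 highest. Car1 alone was at 31511 FPKM in WT library 2 and at 5716 FPKM in knockout-labelled library 1. The other markers except Muc2 and Cdh1 were also highest in WT library 2, and Muc2 was lowest there, at 48.2 FPKM. All 10 epithelial markers were detected, as the tissue label states. The summed FPKM of 7 T cell markers was 22.7 to 32.5 in the knockout-labelled libraries and 12.8 to 36.0 in WT, with WT library 1 highest. Il10 itself was at 13.8, 10.6 and 14.5 FPKM in knockout-labelled libraries 1 to 3, and at 0.757, 0.173 and 0.177 FPKM in WT libraries 1 to 3. It rose by 3.36 on the log2 scale (SE 0.25, adjusted p = 0.0092 in limma), and was called under 12 of the 18 alternative settings. The call ended without WT library 3 (adjusted p = 0.0619), without knockout-labelled library 2 (0.0604) and without knockout-labelled library 3 (0.0723), and also with no filter (0.0541), at a pseudocount of 0.01 (0.0589) and in limma-voom (0.111). Its level in all 3 knockout-labelled libraries does not check the labels, and all directions rest on the labels as given. In bulk tissue fewer cells of a type and less RNA per cell cannot be told apart.

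**Figure D1:**
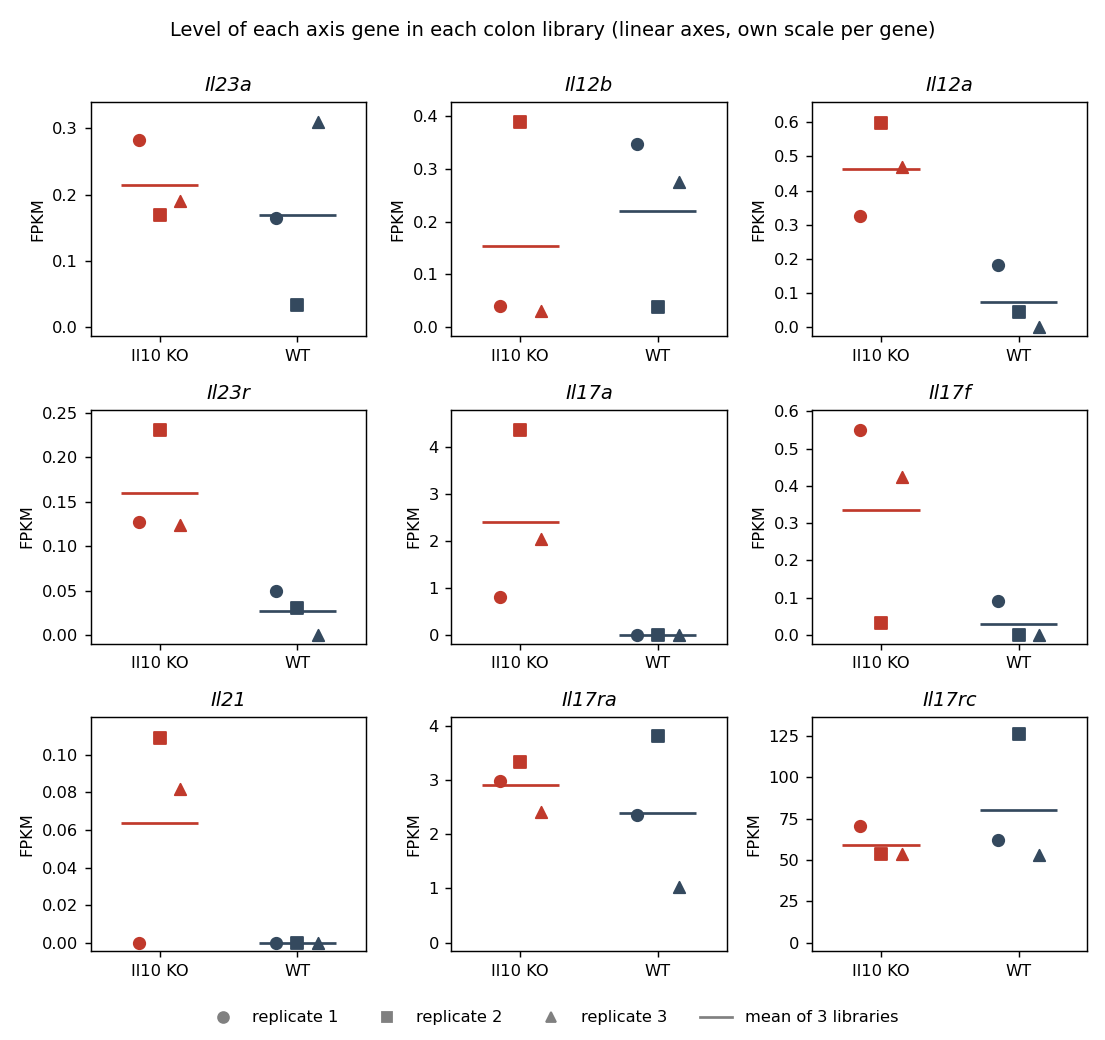
Level in FPKM (y axis, linear, own scale per gene) of the 9 axis genes in the 3 knockout-labelled (left, red) and 3 WT (right, blue) colon libraries; markers give the replicate number and lines the mean of 3 libraries. Il17a is at 0 in all WT libraries, and Il12a and Il23r are the other genes whose groups do not overlap.

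The cytokine subunits that form IL-23 were at low levels in both genotypes. Il23a (ENSMUSG00000025383; GRCm38 chromosome 10, 128296139 to 128298752, minus strand) encodes p19, the subunit particular to IL-23. It was at 0.282, 0.170 and 0.191 FPKM in knockout-labelled libraries 1 to 3, and at 0.165, 0.0337 and 0.310 FPKM in WT libraries 1 to 3. Both the highest and the lowest library were WT, so the genotypes overlapped. The genotypes averaged 0.214 ± 0.0596 FPKM in the knockout-labelled libraries and 0.170 ± 0.138 FPKM in WT (SD, n = 3 each), with an exact permutation p of 0.6. These values rest on 21 reads in the knockout-labelled libraries and 16 in WT. The ratio of scaled reads was 1.24, with a 95% counting interval of 0.618 to 2.55. Counting intervals here take summed reads scaled by the library sizes of the FPKM values (exact binomial) and cover counting error only, not the spread between libraries. Leaving out WT library 2 turned the direction of Il23a, with a log2 fold change of -0.03 without it and 0.06 with it.

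Il12b (ENSMUSG00000004296; chromosome 11, 44400063 to 44414033, plus strand) encodes p40, which IL-23 and IL-12 share. It was at 0.0403, 0.388 and 0.0312 FPKM in knockout-labelled libraries 1 to 3, and at 0.346, 0.0385 and 0.275 FPKM in WT libraries 1 to 3. In each genotype 1 library stood apart. Knockout-labelled library 2 held 12 of the 14 reads of its group, and WT library 2 held 1 of the 19 reads of its group. The log2 fold change was -0.09, the exact permutation p was 0.9 and the ratio of scaled reads was 0.697 (95% counting interval 0.324 to 1.47). Il12b therefore did not separate the genotypes, and the knockout-labelled libraries held both its highest and its lowest value.

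Il12a (ENSMUSG00000027776; chromosome 3, 68690644 to 68698547, plus strand) encodes p35, the partner of p40 in IL-12. It was at 0.326, 0.598 and 0.469 FPKM in knockout-labelled libraries 1 to 3, and at 0.182, 0.0445 and 0 FPKM in WT libraries 1 to 3. Every knockout-labelled library lay above every WT library. The genotypes averaged 0.464 ± 0.136 FPKM in the knockout-labelled libraries and 0.0756 ± 0.0949 FPKM in WT (SD, n = 3 each), with the smallest exact permutation p possible, 0.1. The 36 reads in the knockout-labelled libraries against 6 in WT gave a ratio of 5.68, with a 95% counting interval of 2.37 to 16.5. Fitted without the filter on low values, its log2 fold change of 0.44 (SE 0.11) had an unadjusted p of 0.00704 and an adjusted p of 0.506 in limma. FPKM is per length, so the subunits can be set side by side. In knockout-labelled libraries 1 to 3 Il23a stood at 0.865, 0.284 and 0.408 times the Il12a level. In WT libraries 1 and 2 it stood at 0.908 and 0.757 times that level, and WT library 3 had 9 Il23a reads and 0 Il12a reads. These ratios rest on 6 to 8 Il23a reads and 7 to 16 Il12a reads per knockout-labelled library. WT library 1 had 6 Il23a and 5 Il12a reads, and WT library 2 had 1 of each, so the ratios are loose.

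The receptor chain for IL-23, like Il12a, was higher in every knockout-labelled library than in every WT library. Il23r (ENSMUSG00000049093; chromosome 6, 67422932 to 67491855, minus strand) was at 0.127, 0.230 and 0.123 FPKM in knockout-labelled libraries 1 to 3, and at 0.0498, 0.0304 and 0 FPKM in WT libraries 1 to 3. The genotypes did not overlap, and the exact permutation p was again 0.1. Reads were 4, 9 and 5 in knockout-labelled libraries 1 to 3 and 2, 1 and 0 in WT libraries 1 to 3. A difference of few reads thus separates the groups. Only 18 reads in the knockout-labelled libraries and 3 in WT stand behind these values, a ratio of 5.68 with a wide 95% counting interval of 1.66 to 30.1. Fitted without the filter, Il23r had a log2 fold change of 0.18 (SE 0.06), an unadjusted p of 0.0195 and an adjusted p of 0.614 in limma. On this scale, log2(FPKM + 1), changes of genes well below 1 FPKM are understated.

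**Figure D2:**
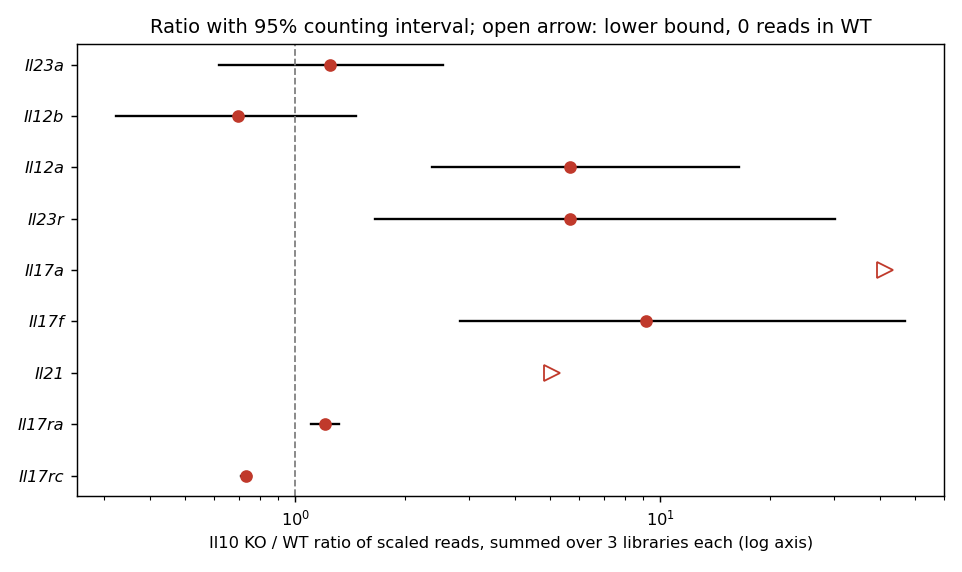
Ratio of scaled reads, knockout-labelled over WT and summed over 3 libraries each (x axis, log scale), for the 9 axis genes, with 95% counting intervals (lines) or, for genes with 0 reads in WT, a lower bound (open arrows). The bound of Il17a is 41.3-fold. The bounds set WT at 3 reads, take the knockout-labelled reads as counted and are not 95% limits. The intervals of Il23a and Il12b include 1, and no interval or bound covers the spread between libraries.

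Il17a, the signature cytokine of T helper 17 cells, had the widest contrast among the ligands. Il17a (ENSMUSG00000025929; chromosome 1, 20730905 to 20734496, plus strand) had 0.812, 4.34 and 2.04 FPKM in knockout-labelled libraries 1 to 3, against 0 reads in each WT library. The 12, 80 and 39 reads of the knockout-labelled libraries differed widely, with library 2 the highest. With the WT group set to 3 reads in total, the limit that a count of 0 allows, Il17a was at least 41.3-fold higher. That limit corresponds to 0.0606 FPKM over the WT libraries, so a lower WT level was not detectable at this depth. The fitted log2 fold change was 1.63 (SE 0.42) with an unadjusted p of 0.00605 and an adjusted p of 0.299 in limma, and the exact permutation p was 0.1. Over the alternative settings that tested it, the adjusted p lay between 0.0627 and 0.979, and none called it.

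Il17f, the closest relative of Il17a, lies 42650 bases from it on the same chromosome (ENSMUSG00000041872; chromosome 1, 20777146 to 20790617, minus strand), and its product pairs with IL-17A or with itself. It was at 0.549, 0.0314 and 0.425 FPKM in knockout-labelled libraries 1 to 3, and at 0.0919, 0 and 0 FPKM in WT libraries 1 to 3. Knockout-labelled library 2, the highest for Il17a, had 1 Il17f read and fell below WT library 1, so the genotypes overlapped. The exact permutation p was 0.2, and the 29 reads in the knockout-labelled libraries against 3 in WT gave a ratio of 9.15 with a 95% counting interval of 2.84 to 46.9. Over the reads of both ligands together, Il17f made up 53.8% of 26 reads in knockout-labelled library 1 (95% exact binomial interval 33.4 to 73.4). It made up 1.23% of 81 reads in library 2 (0.0313 to 6.69) and 26.4% of 53 reads in library 3 (15.3 to 40.3). The interval of library 2 meets neither of the others. These intervals cover the counting of reads only, each from 1 library, and say nothing of the spread between libraries. The FPKM ratio of Il17a over Il17f was 1.48, 138 and 4.81 in these libraries.

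**Figure D3:**
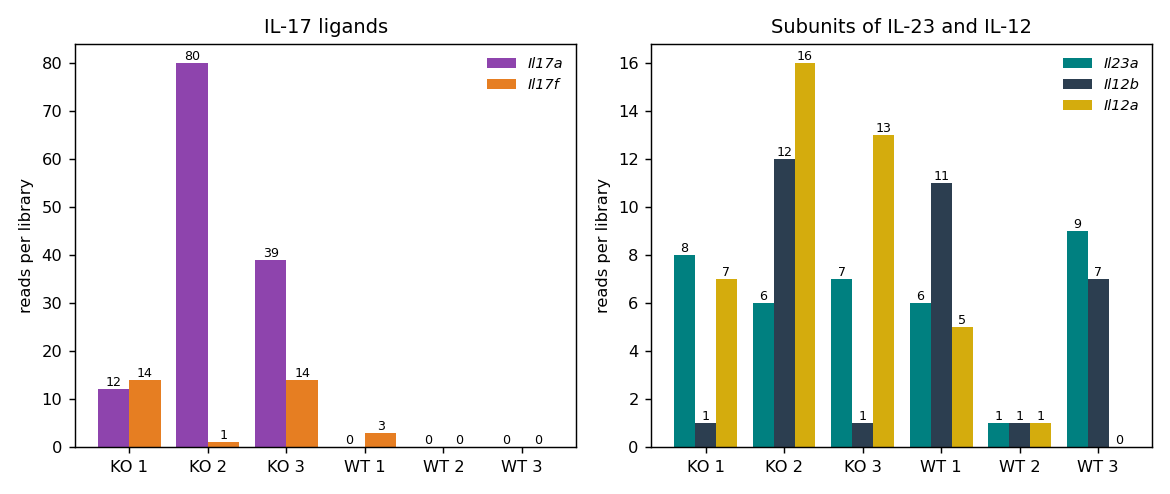
Recovered reads per library (y axis, linear from 0; numbers above bars) of Il17a and Il17f (left) and of Il23a, Il12b and Il12a (right) in knockout-labelled libraries 1 to 3 (left of each panel) and WT libraries 1 to 3. Knockout-labelled library 2 has 80 Il17a reads and 1 Il17f read, and holds 12 of the 14 Il12b reads of its group.

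Il21 encodes interleukin 21, a T cell cytokine that acts on T helper 17 and B cells. Il21 (ENSMUSG00000027718; chromosome 3, 37222759 to 37232636, minus strand) was at 0, 0.109 and 0.0816 FPKM in knockout-labelled libraries 1 to 3 and had 0 reads in each WT library. The genotypes overlapped at 0, with 9 and 7 reads in knockout-labelled libraries 2 and 3 and none in library 1. With the WT group set to 3 reads in total as for Il17a, Il21 was 5.05-fold higher, with an exact permutation p of 0.4. The antisense gene Gm12534 overlaps it and had 0 reads in every library.

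The receptor chains that bind the ligands were the most abundant of the 9 genes and overlapped between the genotypes. Il17rc (ENSMUSG00000030281; chromosome 6, 113471427 to 113483140, plus strand) measured 70.4, 53.3 and 53.5 FPKM in knockout-labelled libraries 1 to 3, and at 62.3, 126 and 52.9 FPKM in WT libraries 1 to 3. WT library 2, the one with the highest epithelial marker sum, stood apart, and WT libraries 1 and 3 lay within or just below the knockout-labelled range. The log2 fold change was -0.35 (SE 0.40, adjusted p = 0.818 in limma, exact permutation p = 0.7), and it was 0.029 without WT library 2. The part of tissue content in this value was not tested.

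Il17ra (ENSMUSG00000002897; chromosome 6, 120463247 to 120487559, plus strand) encodes the chain common to several IL-17 receptors. It was at 2.99, 3.34 and 2.41 FPKM in knockout-labelled libraries 1 to 3, and at 2.35, 3.82 and 1.02 FPKM in WT libraries 1 to 3. Again WT library 2 was the highest of all 6 libraries. The log2 fold change was 0.29 (SE 0.34, adjusted p = 0.824 in limma, exact permutation p = 0.6), and it was -0.044 without WT library 3. Neither receptor gene gave a direction that held in every library.

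The level of Il17rc relative to Il17ra, both per length, separated the libraries by label. It was 23.5, 16.0 and 22.2 in knockout-labelled libraries 1 to 3, and 26.6, 33.0 and 51.9 in WT libraries 1 to 3. Every knockout-labelled library lay below every WT library, with a mean of 20.6 ± 4.04 in the knockout-labelled libraries and 37.2 ± 13.2 in WT (SD, n = 3 each). The log2 ratio differed by -0.82, with an exact two-sided permutation p of 0.1, the smallest possible, and by -0.55 without WT library 3. This ratio was chosen after its values were seen.

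By level, the order in the knockout-labelled libraries was Il17rc, Il17ra, Il17a, Il12a, Il17f, Il23a, Il23r, Il12b and Il21, by mean FPKM. Il17rc stood clear of the rest in every library. Il17ra and Il17a overlapped in their library values, while every Il17a value lay above every Il12a value. Il12a overlapped with Il17f, the genes Il17f, Il23a, Il23r and Il12b overlapped with each other, and Il12b overlapped with Il21. In WT the order was Il17rc, Il17ra, Il12b, Il23a, Il12a, Il17f and Il23r, with Il17a and Il21 at 0, and the 5 genes between Il17ra and those at 0 overlapped. Knockout-labelled library 2 held the highest value of any library for 5 of the 9 genes, Il12b, Il12a, Il23r, Il17a and Il21, and WT library 2 for the 2 receptor genes Il17ra and Il17rc. The 6 cytokine genes together had 42, 124 and 81 reads in knockout-labelled libraries 1 to 3, and 25, 3 and 16 reads in WT libraries 1 to 3.

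The median log2 fold change over the 9 genes was 0.18, against 0.04 over the 12668 genes tested and 0.00 over all genes with a read. This value depends on the pseudocount of 1, since most of the 9 genes lie well below 1 FPKM. It was 0.64 at a pseudocount of 0.1, 2.26 at 0.01 and 2.28 in limma-voom, where the medians over all tested genes were 0.06 in each case. At the pseudocount of 1, with Il17a and Il21 at their lower bounds, it was 0.29, a value that mixes both scales. Of the 9 values 7 were above 0, with Il12b and Il17rc below.

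Genes whose profile over the 6 libraries was most like that of Il17a were Ly6i, Myot and Clec4e. Each profile was taken as percent of the gene's highest library. The mean absolute difference from Il17a was 2.03, 2.57 and 2.92 percentage points, against a median of 50.4 over 11221 protein-coding genes with a mean of at least 1 FPKM. Here and below the closest genes were picked by this difference, so its gap to the median follows from the choice. Ly6i, of the Ly6 family of surface proteins, was at 3.97, 27.5 and 13.1 FPKM in knockout-labelled libraries 1 to 3, and at 0.804, 0.852 and 0.402 FPKM in WT libraries 1 to 3. Myot was at 1.15, 3.57 and 1.75 FPKM in knockout-labelled libraries 1 to 3 and, like Il17a, at 0 FPKM in each WT library. Clec4e, a C-type lectin receptor of myeloid cells, was at 0.638, 7.29 and 3.74 FPKM in knockout-labelled libraries 1 to 3, and at 0.237, 0 and 0 FPKM in WT libraries 1 to 3. The closest profiles to Il23a were Tac1, Pim2 and Elmo2 (9.38, 9.42 and 9.44 points, against a median of 32.1), and those to Il12b were Ccl12, Ly6g5b and Med12 (18.2, 18.7 and 20.3 points, against a median of 43.7). Il23a and Il12b rest on few reads, so these likenesses are loose.

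The receptor partners and signalling molecules on the IL-12 and IL-23 side were tested for 4 of 9 listed genes, and 0 were called in either direction. The 4 tested genes had higher values in the knockout-labelled libraries, except that Ebi3 turned to -0.20 with a weight per library and lay below 0 when any of 4 libraries was left out, with a median log2 fold change of 0.31 and no unadjusted p under 0.05. Stat3, the transcription factor that IL-23 activates, differed by 0.44 on the log2 scale (SE 0.26, adjusted p = 0.626 in limma). Jak2, a kinase bound to the receptor, had one of 0.42 (SE 0.37, adjusted p = 0.750), and Tyk2, its partner kinase, one of 0.21 (SE 0.24, adjusted p = 0.819). Ebi3, the subunit shared by IL-27 and IL-35, had one of 0.02 (SE 0.27, adjusted p = 0.987). Il12rb1, the chain that both receptors share, had a mean FPKM under 1 and is named after its values were seen. It was at 0.502, 1.22 and 0.732 FPKM in knockout-labelled libraries 1 to 3, and at 0.392, 0.387 and 0.170 FPKM in WT libraries 1 to 3, with no overlap. Il27, which encodes the p28 subunit and is also named after its values were seen, had 5, 16 and 17 reads in knockout-labelled libraries 1 to 3 and 1, 0 and 0 in WT libraries 1 to 3.

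Among the other IL-17 family ligands and receptors, 3 of 7 were tested and 0 called, with 1 (Il17c) at an unadjusted p under 0.05. Because Il17c met the filter only through the knockout-labelled libraries, nothing is read from that count beside the 6.14% of all tested genes. Il17c, a ligand made by epithelial cells, was at 3.31, 5.13 and 0.427 FPKM in knockout-labelled libraries 1 to 3, and at 0.259, 0 and 0 FPKM in WT libraries 1 to 3. All knockout-labelled libraries lay above all WT libraries, and the log2 fold change was 1.63 (SE 0.54, adjusted p = 0.421 in limma). Il17d was at 5.53, 4.44 and 7.13 FPKM in knockout-labelled libraries 1 to 3, and at 6.81, 5.65 and 26.4 FPKM in WT libraries 1 to 3, the last being the library with the most smooth muscle marker RNA. Its log2 fold change was -0.77 (SE 0.54, adjusted p = 0.683), and it was -0.12 without that library. Il17re, the receptor chain for IL-17C, had one of -0.35 (SE 0.25, adjusted p = 0.688). Il25 and Il17b had 0 reads in every library.

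**Figure D4:**
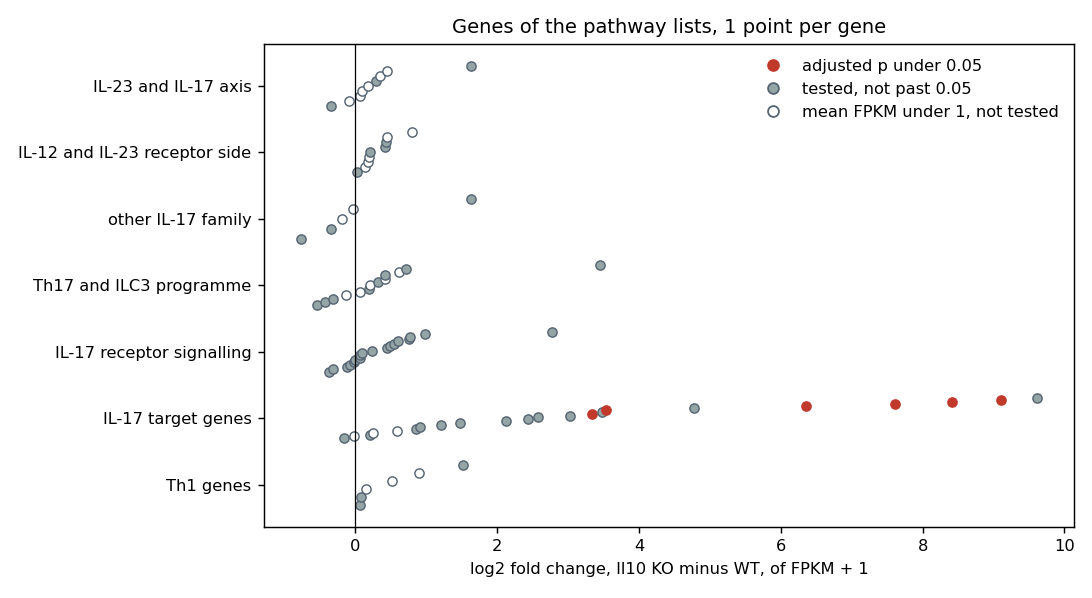
Log2 fold change, knockout-labelled minus WT, of FPKM + 1 (x axis) for each gene with a read in the axis and in 6 pathway lists (rows); filled red points passed an adjusted p of 0.05, grey points were tested and did not, and open points had a mean FPKM under 1. The 6 red points all belong to the IL-17 target list.

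The programme of T helper 17 cells and group 3 innate lymphoid cells did not move as one: 8 of 13 listed genes were tested, 5 had higher and 3 lower values in the knockout-labelled libraries, and 0 were called, with 1 (Il1b) at an unadjusted p under 0.05. Il1b, a cytokine that promotes these cells, was at 9.18, 58.9 and 32.3 FPKM in knockout-labelled libraries 1 to 3, and at 4.29, 0.477 and 0.974 FPKM in WT libraries 1 to 3 (log2 fold change 3.45, SE 0.74, adjusted p = 0.201 in limma). Ahr, a receptor for dietary ligands that innate lymphoid cells need, differed by -0.54 on the log2 scale (SE 0.23, adjusted p = 0.496), and Batf, a transcription factor of T helper 17 cells, by 0.72 (SE 0.34, adjusted p = 0.524). Il1r1, the receptor for IL-1, was at 2.54, 2.63 and 3.84 FPKM in knockout-labelled libraries 1 to 3, and at 3.46, 5.34 and 4.38 FPKM in WT libraries 1 to 3 (log2 fold change -0.43, SE 0.24, adjusted p = 0.585). The cytokine Il1b and its receptor gene thus had differences of opposite sign. The median log2 fold change over the 8 genes was 0.25. Il22, a partner cytokine of IL-17 named here after its values were seen, had 29, 1 and 1 reads in knockout-labelled libraries 1 to 3, and 0, 4 and 2 reads in WT libraries 1 to 3. Its reads thus lay mostly in knockout-labelled library 1, the lowest of that group for Il17a and the highest for Il17f.

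All 18 genes of IL-17 receptor signalling were tested, 12 had higher and 6 lower values in the knockout-labelled libraries, and 0 were called, with 4 at an unadjusted p under 0.05. Zc3h12a, which encodes the endonuclease Regnase-1, a feedback inhibitor of IL-17 signalling, came closest. It was at 60.7, 73.4 and 48.0 FPKM in knockout-labelled libraries 1 to 3, and at 11.7, 7.99 and 5.10 FPKM in WT libraries 1 to 3 (log2 fold change 2.78, SE 0.35, adjusted p = 0.0537 in limma). Its groups lay far apart, and it was called under 4 of the 18 alternative settings. Tnfaip3, which encodes the inhibitor A20, differed by 0.99 on the log2 scale (SE 0.32, adjusted p = 0.403). Cebpb and Cebpd, transcription factors downstream of the receptor, had log2 fold changes of 0.77 and 0.76 (SE 0.27 and 0.28, adjusted p = 0.433 and 0.455). The median over the 18 genes was 0.16.

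IL-17 target genes held all 6 calls of the pathway lists. Of 22 listed genes 19 were tested and 18 had higher values in the knockout-labelled libraries. Called higher were 6 genes, S100a9, S100a8, Cxcl1, Cxcl2, Nos2 and Reg3g, against 0.182% of all tested genes. Of these 6, S100a9, S100a8, Cxcl1 and Cxcl2 averaged under 1 FPKM in WT. They met the filter only through the knockout-labelled libraries, as some uncalled genes of the list did. Nothing is therefore read from these counts. The list was compiled with results of these data known, so its direction is no independent evidence, and these genes also respond to other signals. The neutrophil attractant Cxcl1 was at 9.08, 15.1 and 15.9 FPKM in knockout-labelled libraries 1 to 3, and at 0.727, 0.0808 and 0.413 FPKM in WT libraries 1 to 3 (log2 fold change 3.34, SE 0.29, adjusted p = 0.0157 in limma). Cxcl2, a second attractant, rose by 3.54 (SE 0.35, adjusted p = 0.0240), Nos2, which makes nitric oxide in inflamed tissue, by 6.35 (SE 0.72, adjusted p = 0.0381), and Reg3g, an antibacterial lectin, by 7.60 (SE 0.92, adjusted p = 0.0490), all on the log2 scale. The calprotectin subunit gene S100a8 rose by 9.10 (SE 0.51, adjusted p = 0.00226 in limma). S100a9, with 0 reads in WT, was 2595-fold higher with the WT group set to 3 reads in total (adjusted p = 0.000486 in limma). Csf3, the granulocyte growth factor, named after its values were seen, had 2, 40 and 135 reads in knockout-labelled libraries 1 to 3 and 0 in each WT library. The median log2 fold change over the 19 tested genes was 3.03, or 3.34 with S100a9 and Csf3 at their lower bounds. S100a9 passed the threshold under all 18 alternative settings and S100a8 under 17, while Cxcl1 passed under 11, Cxcl2 under 10, Nos2 under 9 and Reg3g under 6. Leaving out other libraries ended the call of Cxcl2 (adjusted p = 0.0634 without WT library 1 and 0.0573 without WT library 2), of Nos2 (0.0747 without WT library 2 and 0.108 without knockout-labelled library 1) and of Reg3g (0.0783 without WT library 1 and 0.124 without knockout-labelled library 1). For the 4 genes other than S100a8 and S100a9, leaving out WT library 3 or knockout-labelled library 2 or 3 ended the call, with adjusted p-values of 0.0909, 0.138 and 0.0909 for Cxcl1, 0.117, 0.0659 and 0.112 for Cxcl2, 0.140, 0.204 and 0.0723 for Nos2, and 0.163, 0.251 and 0.158 for Reg3g. All 6 neutrophil markers had higher values in the knockout-labelled libraries, 5 of them at an unadjusted p under 0.05 and 0 called, and Cxcr2, Mmp8 and Retnlg had 0 reads in every WT library. Of these 5, Csf3r, Cxcr2, Mmp8 and Retnlg averaged under 1 FPKM in WT and met the filter only through the knockout-labelled libraries. Nothing is therefore read from that count beside the 6.14% of tested genes that were higher at this level. S100a8 and S100a9 are neutrophil genes too. The summed FPKM of the neutrophil list was 351 to 445 in the knockout-labelled libraries and 1.64 to 126 in WT. Except in WT library 2, most of this was Ly6g. It was at 337 to 388 FPKM in the knockout-labelled libraries and 0.322 to 124 in WT. The part of neutrophil content in the target values was not tested.

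Genes of the T helper 1 arm, which IL-12 drives, were tested for 3 of 6 and 0 were called, with 1 (Ifng) at an unadjusted p under 0.05. Because Ifng met the filter only through the knockout-labelled libraries, nothing is read from that count beside the 6.14% of all tested genes. Ifng, the signature cytokine of that arm, was at 1.41, 6.73 and 3.32 FPKM in knockout-labelled libraries 1 to 3, and at 1.34, 0.234 and 0.179 FPKM in WT libraries 1 to 3 (log2 fold change 1.52, SE 0.49, adjusted p = 0.396 in limma). Like Il17a, its highest value was in knockout-labelled library 2, and unlike Il17a it was read in every WT library. Cxcr3 and Il18, whose directions turned under other settings, had log2 fold changes of 0.08 and 0.07 (SE 0.48 and 0.73, adjusted p = 0.973 and 0.985).

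**Figure D5:**
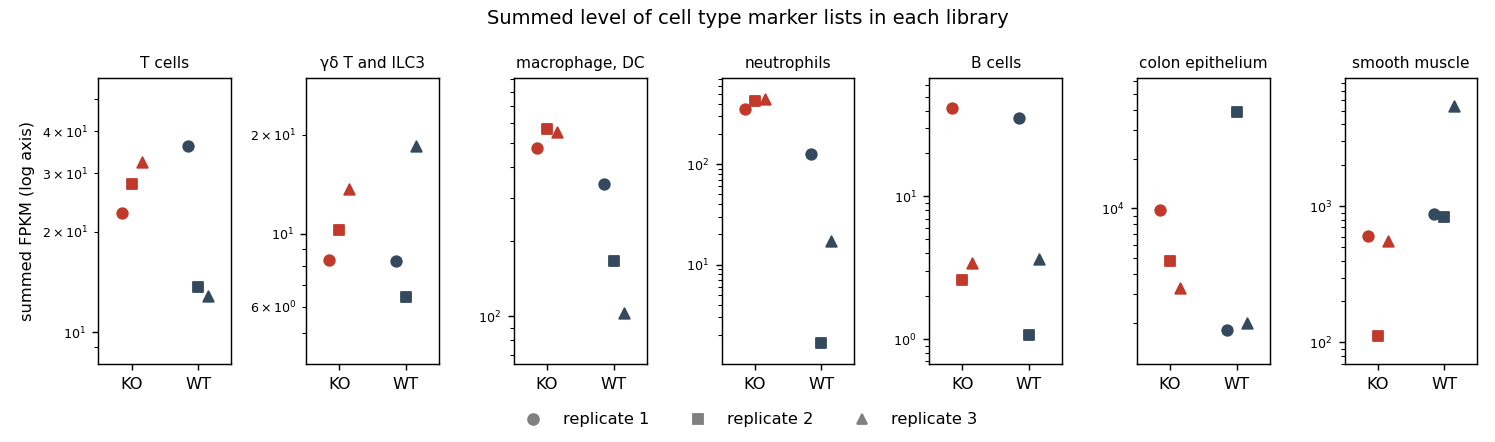
Summed FPKM (y axis, log scale, own range per panel) of 7 cell type marker lists in the 3 knockout-labelled (left, red) and 3 WT (right, blue) libraries; markers give the replicate number. The neutrophil list, mostly Ly6g except in WT library 2, and the macrophage and dendritic cell list, mostly H2-Ab1, are higher in every knockout-labelled library. The smooth muscle list is lower in every one, and the T cell list is highest in WT library 1.

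The cell types that make and receive these cytokines were read through their markers. All 7 T cell markers had higher values in the knockout-labelled libraries by mean log2 value and 0 were called, with a median log2 fold change of 0.33. WT library 1 had the highest T cell marker sum of all 6 libraries, 36.0 FPKM, and 0 Il17a reads. Summed FPKM of 3 B cell markers also differed within each genotype. It was 42.0, 2.59 and 3.41 in knockout-labelled libraries 1 to 3, and 35.3, 1.07 and 3.62 in WT libraries 1 to 3. The part of this in the T cell marker and cytokine values was not tested. Of the markers of gamma delta T cells and group 3 innate lymphoid cells, Tcrg-C1 was at 4.54, 5.23 and 5.44 FPKM in knockout-labelled libraries 1 to 3, and at 2.41, 3.52 and 1.67 FPKM in WT libraries 1 to 3. Trdc was at 0.574, 1.69 and 2.32 FPKM in knockout-labelled libraries 1 to 3, and at 0.160, 0.549 and 0.0801 FPKM in WT libraries 1 to 3. These 2 genes, constant segments of the gamma and delta chains of the T cell receptor, did not overlap between the genotypes. Nor did Il7r, at 0.680 to 2.76 FPKM in the knockout-labelled libraries and 0.149 to 0.532 in WT, while Ncr1 and Kit overlapped. The sum of that list of 5 markers was 8.32 to 13.7 FPKM in the knockout-labelled libraries and 6.44 to 18.5 in WT. Kit alone was at 16.6 FPKM in WT library 3, the library with the highest smooth muscle marker sum. Neither Tcrg-C1 (adjusted p = 0.372 in limma) nor any other of the 3 tested genes of that list was called, with 2 (Tcrg-C1 and Il7r) at an unadjusted p under 0.05. Because Il7r met the filter only through the knockout-labelled libraries, nothing is read from that count beside the 6.14% of all tested genes. Macrophage and dendritic cell markers summed to 476 to 566 FPKM in the knockout-labelled libraries and 103 to 339 in WT. Most of this was H2-Ab1, at 455 to 523 FPKM in the knockout-labelled libraries and 83.5 to 306 in WT. Each of the other markers overlapped between the genotypes. Of the 5 tested markers 4 had higher values in the knockout-labelled libraries, and Adgre1 had a lower one (log2 fold change -0.34, adjusted p = 0.792 in limma). The dendritic cell markers Flt3 and Zbtb46 were under 1 FPKM in all libraries, and their log2 fold changes were -0.05 and -0.23. No marker of these lists was at 0 in all 6 libraries, and the part of cell content in the cytokine values was not tested.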

How the data were processed

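Mouse colon RNA was sequenced as 6 libraries after NEBNext Ultra library preparation on an Illumina GAIIx, per the labels' protocols. The authors deposited 1 table of FPKM values per gene. Bowtie 0.12.2 and the builds hg38 and mm8 are named, per the submitters' processing notes, without a role, but the table's gene coordinates were identical to GENCODE M21 (GRCm38) for 98.3% of shared identifiers. FPKM multiplied by gene length fell on whole steps within 0.01, and reads were recovered from those steps. Groups follow the genotype labels. limma 3.58.1 in R 4.3.3 was fitted to log2(FPKM + 1) over genes with a mean of at least 1 FPKM, with a mean trend and Benjamini-Hochberg adjustment, and a gene was called at an adjusted p under 0.05. Single genes also had exact two-sided permutation tests in scipy 1.17.1. The scripts were tested on simulated data.

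Named genes were the 9 axis genes, the called genes and up to 4 tested genes of smallest unadjusted p of each list, Il10, list markers, and the 3 protein-coding genes most like Il17a, Il23a and Il12b in profile. The members and lists were chosen with earlier results of these data known. Alternatives changed the pseudocount, filter, scaling, prior, weights, pairing, unit and libraries. Same-numbered libraries deviated from their group means with correlations of -0.149, 0.180 and 0.396, so the numbers were not used to pair them. Some listed genes are not reported here and were left out of the lists' counts.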

Additional observations from a re-analysis of the deposited data

How the results depend on the processing

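No axis gene was called in any alternative that tested it, which was 18 alternatives for Il17rc, 17 for Il17a and Il17ra, 2 for Il23a, Il12b, Il12a and Il17f, and 1 for Il23r and Il21. The axis median log2 fold change of 0.18 was 0.64 at a pseudocount of 0.1, 2.26 at 0.01 and 2.28 in limma-voom on recovered reads, and 0.13 to 0.20 when 1 library was left out. The count of all genes called, 23, was 9 at a pseudocount of 0.01, 4 without a filter, 46 with TPM, 331 with a weight per library, 2 in limma-voom and 7 with a replicate block, which changed no call of an axis gene; knockout-labelled library 1 did not correlate best with its own number. It ranged from 4 (without knockout-labelled library 2) to 29 (without knockout-labelled library 1) when 1 library was left out, with 12 without WT library 1, 5 without WT library 3 and 7 without knockout-labelled library 3. TPM moved the median log2 fold change of all tested genes from 0.04 to 0.15. With a weight per library the direction reversed for Ebi3 (-0.20), Cxcr3 (-0.66) and Il18 (-0.83), and Il18 was -0.065 after quantile normalization. With 1 library left out, log2 fold changes ran from -0.044 (without WT library 3) to 0.58 for Il17ra, from -0.59 to 0.029 (without WT library 2) for Il17rc, from -0.11 to 0.20 for Ebi3, from -0.37 to 0.55 for Cxcr3 and from -0.70 to 0.65 for Il18, each range crossing 0. The cause was not tested. Of 601 values over 34 single genes, 518 were counted as unchanged. For genes tested in the main fit this meant the same direction and side of the threshold. For genes not tested there it meant only a shift smaller than the SD within genotypes. Il23a without WT library 2 was thus counted as unchanged although its direction turned. Most axis genes rest on fewer than 40 reads per genotype, which limits what could be detected.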
